A study of Mus musculus with 9 samples.

Results

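The 5 genes described here belong to the basal layer of squamous epithelium and were followed across 3 adjoining zones of the mouse stomach. They are the keratin genes Krt5, Krt14 and Krt15, the p63 gene Trp63, and Col17a1, which encodes collagen 17. They were read through every probe set whose annotation gives one of these symbols alone, which was 10 of the 45101 probe sets on the array: 1 for Krt5, 3 for Krt14, 1 for Krt15, 4 for Trp63 and 1 for Col17a1. All 10 passed the filter on dim probe sets, and all 5 genes were among the 13637 genes tested. The tissue came from 9 healthy, untreated female C57Bl/6 mice, 3 months old. From each stomach a stripe of 600 to 800 µm was cut from the squamocolumnar junction, where squamous and glandular epithelium meet, from the non-glandular forestomach on one side and from the glandular corpus on the other. Tissue of 3 mice was pooled per series, and each of the 3 series gave 1 Affymetrix expression array per zone. Arrays with the same series number therefore come from the same mice. A replicate is thus a pool, and single animals were not measured.

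The basal layer is the proliferating sheet of a stratified squamous epithelium that rests on the basement membrane. Its cells carry an intermediate filament network built from pairs of 1 type II keratin (keratin 5) and 1 type I keratin (keratin 14 or keratin 15). The transcription factor p63 is required for stratified epithelia to form and is kept on in their basal cells, where its N-terminally truncated isoforms prevail. Collagen 17 is a transmembrane collagen of the hemidesmosome, the structure that ties basal keratin filaments to the basement membrane. Glandular epithelium of the stomach is built instead on the simple keratins 8 and 18. In the mouse the forestomach is lined by a keratinised squamous epithelium that resembles the epidermis and the esophagus.

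Promoter sequences from RefSeq (GRCm38.p6) were held for 3 of the 5 genes, Krt5, Krt14 and Col17a1. Those of Krt5 and Col17a1 are shown because their entries start at the outer end of the annotated gene. These 2 genes belong to one basal cell structure, keratin filament and anchor. The entry for Krt14 begins inside the annotated gene and is not shown. Each sequence is the stretch of 250 bases before the annotated start, 5′ to 3′ on the minus strand, chr15:101712906-101713155 for Krt5 and chr19:47692043-47692292 for Col17a1.
Krt5: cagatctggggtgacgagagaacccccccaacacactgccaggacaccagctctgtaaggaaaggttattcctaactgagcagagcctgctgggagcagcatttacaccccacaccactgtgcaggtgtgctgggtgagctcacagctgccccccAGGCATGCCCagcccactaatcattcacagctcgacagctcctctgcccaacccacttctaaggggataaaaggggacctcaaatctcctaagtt
Col17a1: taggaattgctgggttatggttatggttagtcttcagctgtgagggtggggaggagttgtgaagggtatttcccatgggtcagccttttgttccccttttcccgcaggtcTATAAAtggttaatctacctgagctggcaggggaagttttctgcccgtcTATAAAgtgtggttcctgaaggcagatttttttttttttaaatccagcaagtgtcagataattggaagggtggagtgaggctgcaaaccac
Capitals mark matches to the motifs searched on both strands, with no overlap between them. In Krt5 they are the single match to the p53 family half-site, the sequence class that p53, p63 and p73 recognise, 95 to 86 bases before the start. In Col17a1 they are 2 copies of TATAAA, starting 140 and 91 bases before the start. Of all 32851 promoter windows of this length in the table, 7.13% hold the half-site and 12.4% hold TATAAA. The motif TGANTCA had no match in either window, and 6.75% of all windows hold it. The same was true of GGGCGG, which 32.7% of all windows hold. A further motif, GCCNNNGGC, also had no match and occurs in 13.7% of all windows. A match describes the letters of the window and is no evidence of binding.

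The values are MAS5 signals, in the array software's intensity units, which can be compared between arrays for one probe set but not between probe sets. Tests were run with limma on log2 signals over all 13637 genes, each gene standing by its brightest probe set, with p-values adjusted by the Benjamini-Hochberg method and a threshold of 0.05. A fold is on the scale of log2(signal + 9.8), which understates the change of a gene that is dim in one zone. In tissue pools, fewer cells of a type and less RNA per cell cannot be told apart. Array medians ran from 47.9 to 57.1. For the Gapdh control probes, the ratio of 3′ over 5′ signal, which rises as RNA degrades, was 0.759 ± 0.0042 in the junction, 0.846 ± 0.072 in the forestomach and 0.723 ± 0.029 in the corpus (mean ± SD, n = 3 each), and its part in the results was not tested. Forestomach array 1 stands apart from the other 2 in glandular signal. The summed signal of 5 simple epithelial keratins was 27735.7, 25877 and 27999 on junction arrays 1, 2 and 3, against 993.1, 2299 and 2061 on the forestomach arrays. Of these forestomach sums, Krt7 gave 685.2, 675.6 and 602.7. Unlike the other 4, Krt7 was called higher in the forestomach than in the corpus (log2 difference 1.40, limma adjusted p = 0.000133). The summed signal of 7 mucous cell markers was 78669, 69796 and 81061 in the junction, against 1209.5, 23776 and 30123 in the forestomach. Of these forestomach sums, Tff1 gave 470.1, 5624.5 and 6219, Gkn1 260.4, 7130 and 10404, and Gkn2 387.0, 9454 and 11877. Between junction and forestomach these 3 did not pass (limma adjusted p = 0.0619, 0.0881 and 0.164), and the other 4 were called higher in the junction. For 7 parietal cell markers the summed signal was 42470, 35266.5 and 39388 in the junction, against 2259, 3012 and 4218 in the forestomach. Of these forestomach sums, Ckb alone gave 2093, 1867.5 and 2193. The difference of Ckb between junction and forestomach did not pass (log2 difference -0.32, limma adjusted p = 0.124). Without forestomach array 1 the log2 difference between junction and forestomach was 0.02 for Krt5, -0.05 for Krt14, 0.64 for Krt15, -0.56 for Trp63 and -0.51 for Col17a1, against 0.09, 0.00, 1.01, -0.54 and -0.47 with it, and none of the 5 was then called. The part of glandular tissue in the levels of the 5 genes was not tested.

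In the junction and forestomach all 5 genes were bright and in the corpus they were dim. In the forestomach against the corpus, 5 of 5 were called higher, where 30.0% of all genes were, and their arrays did not overlap, where 33.2% of all genes were higher without overlap. Their median log2 difference was 5.62, against -0.01 over all genes. In the junction against the corpus, 5 of 5 were again called higher, where 13.2% of all genes were. Their median was 5.59, against -0.05 over all genes. By probe set, 10 of 10 were called higher in both comparisons, where 9.14% of all probe sets were in the junction and 25.2% in the forestomach. Both comparisons use the same corpus arrays. Trp63 probe sets 1418158_at and 1459581_at, Krt14 probe set 1455573_at and that of Col17a1 were below the filter level on all 3 corpus arrays. They passed the filter only through the zones where they are high. The 5 genes were also chosen with earlier results of these data known, so these counts are a description. In the junction against the forestomach, 1 of 5 was called, Trp63, which was lower, where 44.6% of all genes were called in either direction and 23.1% lower. By probe set, 2 of 10 were called lower, where 37.4% of all probe sets were called in either direction. These 2 were the dim Krt14 probe set 1455573_at and Trp63 probe set 1459581_at. The probe set that stood for Trp63, 1418158_at, did not pass there (limma adjusted p = 0.0505 over all probe sets). Trp63 and Col17a1 lay below the forestomach without overlap, where 29.8% of all genes did. Of the 4085 genes called higher in the forestomach than in the corpus, as all 5 were, 2690 were called lower in the junction than in the forestomach. The median of the 5 genes was 0.00 there, against -0.04 over all genes.

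**Figure D1:**
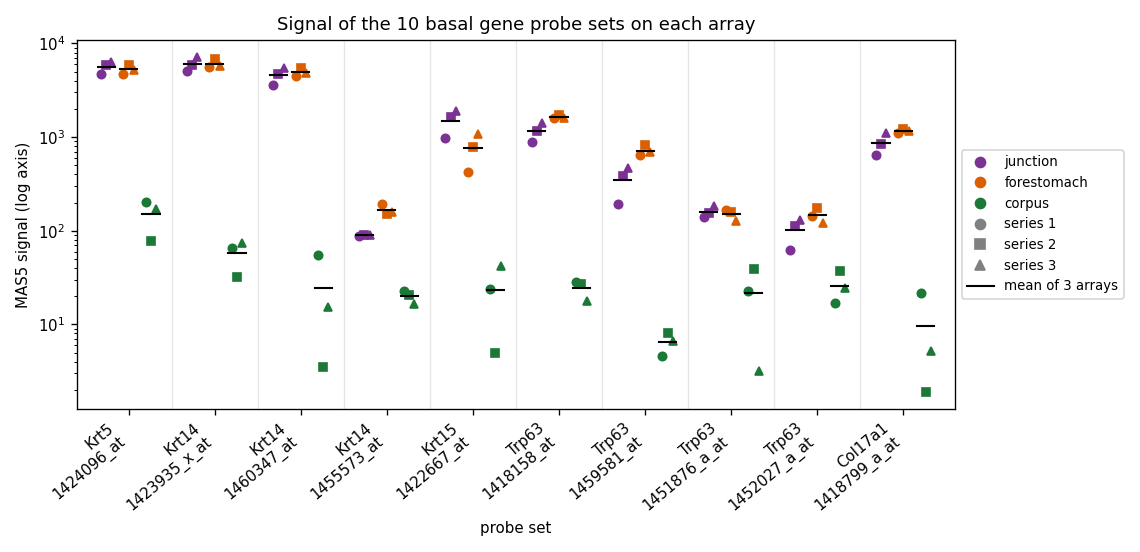
MAS5 signal (log axis) of each of the 10 probe sets on each of the 9 arrays, by zone, with the series shown by the shape of the point and the mean of 3 arrays as a line. Every junction and forestomach point of a probe set lies above all 3 of its corpus points, and Krt15 is the probe set with its junction mean (1495) furthest above its forestomach mean (761.8).

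Keratin 5 is the type II keratin of basal cells, the partner of keratins 14 and 15. Krt5 had signals of 4704.8, 5861 and 6392 on junction arrays 1, 2 and 3, and of 4726.5, 5841 and 5266 on the forestomach arrays, against 200.6, 78.1 and 170.0 on the corpus arrays. The junction and forestomach arrays overlap, and both stand far above the corpus. Krt5 was 37.6-fold higher in the junction than in the corpus (log2 difference 5.23 ± 0.30, SE, limma adjusted p = 5.62e-06) and 35.3-fold higher in the forestomach than in the corpus (5.14 ± 0.30, adjusted p = 1.26e-06). Between junction and forestomach the log2 difference was 0.09 (95% interval -0.58 to 0.77, adjusted p = 0.825). Of the 5 genes, Krt5 was the one above the filter level on all 3 corpus arrays, so its trace in the corpus was measurable. That trace was 4.24%, 1.34% and 3.23% of the forestomach signal in series 1, 2 and 3. Of 4 keratins of the layers above the basal one that were followed beside it, Krt10 and Krt1 showed the same order of series, with 5.52%, 1.87% and 3.30% for Krt10 and 6.96%, 2.56% and 3.81% for Krt1. The other pair did not, with 2.50%, 1.66% and 0.785% for Krt4 and 3.47%, 1.54% and 1.21% for Krt13.

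Keratin 14 is the main type I partner of keratin 5. The brightest Krt14 probe set, 1423935_x_at, had signals of 5109, 5866 and 7174 in the junction and of 5571, 6769 and 5719 in the forestomach, against 66.0, 32.0 and 73.7 in the corpus. The suffix _x_at marks a probe set in which some probes may also match other transcripts. A second probe set without that suffix, 1460347_at, gave 3570.0, 4716 and 5479 in the junction and 4447, 5426 and 4837 in the forestomach, against 55.2, 3.5 and 15.2 in the corpus. Both therefore place the junction within the range of the forestomach or close to it. For the brightest probe set the log2 difference was 6.55 ± 0.25 in the junction against the corpus (93.5-fold, adjusted p = 9.52e-07) and 6.55 ± 0.25 in the forestomach against the corpus (93.6-fold, adjusted p = 1.80e-07). Its difference between junction and forestomach was 0.00 (95% interval -0.58 to 0.57). The third probe set, 1455573_at, was dim and behaved otherwise, with 88.7, 89.3 and 89.7 in the junction and 192.1, 150.6 and 157.1 in the forestomach, against 22.9, 20.4 and 16.6 in the corpus. Its junction arrays lay below all forestomach arrays, at a log2 difference of -0.83 ± 0.12 (adjusted p = 0.00107 over all 29511 probe sets that passed the filter). Averaging the 3 Krt14 probe sets gave log2 differences of 5.21 for the junction and 5.52 for the forestomach against the corpus.

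Keratin 15 is a type I keratin that marks basal cells of several stratified epithelia and, in mouse skin and esophagus, populations with progenitor properties. Krt15 had signals of 985.2, 1622 and 1878 in the junction and of 425.2, 790.0 and 1070.2 in the forestomach, against 23.9, 4.9 and 41.6 in the corpus. It was the only one of the 5 genes with the junction above the forestomach in all 3 series, by 2.32, 2.05 and 1.75 times in series 1, 2 and 3. Over all genes, 31.7% had the junction above the forestomach in all 3 series. Array 1 of the junction nevertheless lay below array 3 of the forestomach, so the zones overlap. The log2 difference between junction and forestomach was 1.01 ± 0.49 (2.01-fold, 95% interval -0.11 to 2.13) and did not pass (limma adjusted p = 0.130). By limma with the series as a block, which removes the shared difference between pools, the adjusted p was 0.0834, and it was 0.0469 with a larger pseudocount of 30.9. Against the corpus, Krt15 was 49.4-fold higher in the junction (log2 difference 5.63 ± 0.49, adjusted p = 7.77e-05) and 24.5-fold higher in the forestomach (4.62 ± 0.49, adjusted p = 5.55e-05). With pseudocounts of 1 and 30.9 these log2 differences were 6.29 and 4.82 for the junction and 5.27 and 3.83 for the forestomach, and without series 2 that of the junction was 5.04.

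Krt15 was set against each of the other 4 genes through their log2 ratio on each array. This comparison was chosen after the values of Krt15 were known, so it is a description with no test. The log2 difference between junction and forestomach was larger for Krt15 than for Krt14 by 1.01, for Krt5 by 0.92, for Trp63 by 1.55 and for Col17a1 by 1.48. Each of these 4 differences had the same sign in 3 of 3 series, ranging from 0.48 to 2.04 by series.

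**Figure D2:**
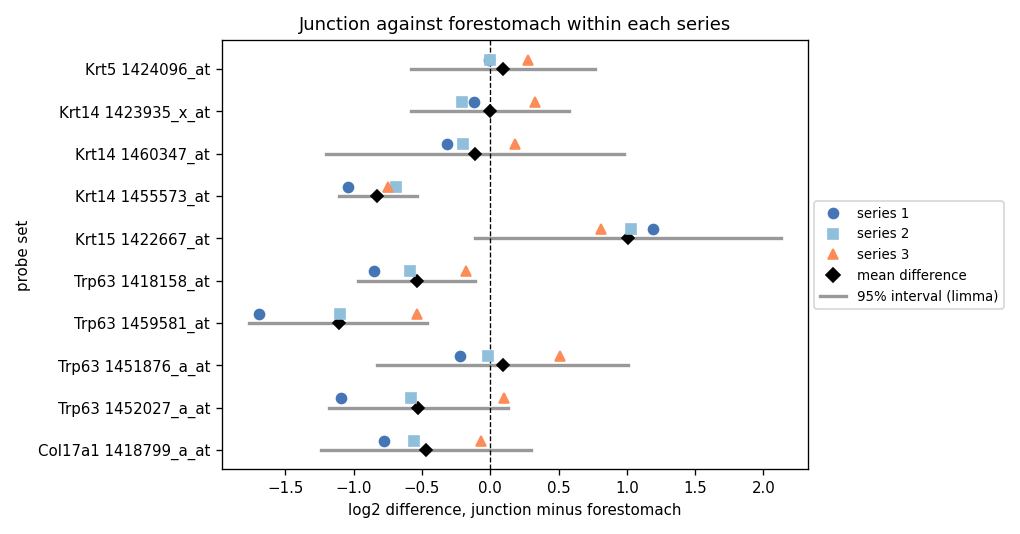
Log2 difference, junction minus forestomach, for each of the 10 probe sets, with 1 point per series, the mean as a diamond and limma's 95% interval as a bar. Krt15 lies to the right of 0 in all 3 series, Krt5 and the 2 bright Krt14 probe sets lie around 0, and the brightest Trp63 probe set and Col17a1 lie to the left of 0 in all 3 series.

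The transcription factor p63 sits above these structural genes in the basal programme. The brightest Trp63 probe set, 1418158_at, had signals of 886.9, 1154 and 1419 in the junction and of 1604.5, 1736 and 1613 in the forestomach, against 28.6, 26.8 and 17.8 in the corpus. All junction arrays lay below all forestomach arrays, as for 29.8% of all genes, and above all corpus arrays. Trp63 was 33.8-fold higher in the junction than in the corpus (log2 difference 5.08 ± 0.18, adjusted p = 7.46e-07) and 49.0-fold higher in the forestomach than in the corpus (5.62 ± 0.18, adjusted p = 1.05e-07). In the junction against the forestomach the log2 difference was -0.54 ± 0.18 (95% interval -0.96 to -0.12, adjusted p = 0.0413). This call was near the threshold and was lost in 13 of 23 alternatives, with the adjusted p between 0.0149 and 0.200. It was lost without junction array 1 or 2 (0.123 and 0.0825), without forestomach array 1, 2 or 3 (0.0800, 0.103 and 0.0817), without corpus array 2 (0.0534), without series 1 or 2 (0.184 and 0.200) and with the series as a block (0.0724).

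The 4 Trp63 probe sets gave junction minus forestomach differences between -1.11 and 0.09. Probe set 1459581_at had 190.7, 381.8 and 467.4 in the junction and 637.1, 831.4 and 685.2 in the forestomach, against 4.6, 8.1 and 6.7 in the corpus. Its junction level was 2.16-fold below the forestomach level (log2 difference -1.11 ± 0.29, adjusted p = 0.0154 over all probe sets), which was further down than for 1418158_at by 0.57. Probe set 1451876_a_at had 140.0, 154.4 and 184.3 in the junction and 164.5, 156.8 and 126.9 in the forestomach, against 22.5, 38.6 and 3.2 in the corpus. Its zones overlapped and its log2 difference between junction and forestomach was 0.09 ± 0.40 (95% interval -0.83 to 1.01). The fourth, 1452027_a_at, had 61.6, 113.1 and 131.4 in the junction and 142.5, 174.3 and 122.1 in the forestomach, against 16.8, 36.9 and 24.2 in the corpus, with a log2 difference between junction and forestomach of -0.53 ± 0.29 that did not pass (adjusted p = 0.185). The suffix _a_at marks probe sets that match more than one transcript of the same gene, and which p63 isoforms each probe set reads is not given in the sources used here. All 4 were called higher in the junction and in the forestomach than in the corpus. With a pseudocount of 30.9 the log2 differences of Trp63 from the corpus were 4.40 in the junction and 4.93 in the forestomach. With the mean of the 4 probe sets, Trp63 was at log2 differences of 3.42 in the junction and 3.95 in the forestomach against the corpus, and the call between junction and forestomach was lost (adjusted p = 0.108).

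Collagen 17 anchors the basal cell from within its membrane. Col17a1 had signals of 641.6, 836.0 and 1104.5 in the junction and of 1107.5, 1234.0 and 1159.9 in the forestomach, against 21.5, 1.9 and 5.2 in the corpus. The junction arrays all lay below the forestomach arrays, the highest of them by a narrow margin. Col17a1 was 48.2-fold higher in the junction than in the corpus (log2 difference 5.59 ± 0.34, adjusted p = 8.19e-06) and 66.6-fold higher in the forestomach than in the corpus (6.06 ± 0.34, adjusted p = 1.06e-06). All 3 corpus signals were below the filter level, so these folds depend on the pseudocount: with 1 and 30.9 the log2 differences were 6.83 and 4.46 for the junction and 7.30 and 4.92 for the forestomach. Without series 1 that of the junction was 6.20. Between junction and forestomach the log2 difference was -0.47 (95% interval -1.24 to 0.30, adjusted p = 0.294).

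Set on a linear scale between its neighbours, with 0% at the corpus and 100% at the forestomach of the same series, the junction lay at 107% ± 12.8 for Krt5 and 101% ± 21.3 for Krt14 (mean ± SD, n = 3 series). It lay at 69.4% ± 16.9 for Trp63 and at 73.3% ± 19.7 for Col17a1, and for Krt15 at 208% ± 30.6. None of the 5 genes was called above both neighbours by the intersection-union test (limma, larger p of both junction comparisons), where 0.198% of all genes were, and none had an unadjusted p under 0.05 in that test. Over the 195 genes that were at least 4 log2 units higher in the forestomach than in the corpus, the median log2 difference between junction and forestomach was -1.23. That value is a description, since the forestomach arrays chose these genes and enter the difference. Among these 195 genes, 2 had a junction minus forestomach difference above that of Krt15, namely Spink12 (1.28) and the arginase gene Arg1 (1.20), named after their values were seen.

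The junction pools differed among themselves alike for all 5 genes. Junction array 1 was the lowest and array 3 the highest for the brightest probe set of all 5 genes, where 16.6% of all genes were so. Set against the forestomach of the same series, Trp63 stood at 54.5%, 65.9% and 87.8% of the way from the corpus in series 1, 2 and 3, and Col17a1 at 57.1%, 67.7% and 95.2%. Over 12 other keratins of the upper layers and of stressed epithelium the median was 78.6%, 86.0% and 98.2% of the forestomach signal in series 1, 2 and 3, although single genes differed in order, and Krt6a, Krt6b, Krt16 and Krt76 were highest in series 1. The summed signal of 7 smooth muscle markers was 26562, 28149 and 23504, against 52096, 58132 and 55014 in the forestomach. The labels name the tissue as epithelium, yet every array carried these muscle transcripts, and every forestomach stripe held more muscle signal than every junction stripe. The part of these differences between stripes in the levels of the 5 genes was not tested.

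Other genes of the anchoring complex that holds collagen 17 were called in both directions. Of 9 listed genes 8 were measured. Comparing the junction with the forestomach, 3 were called higher, 1 lower and 4 did not pass, where 21.5% of all genes were called higher and 23.1% lower. In the junction against the corpus 4 were higher, where 13.2% of all genes were, and 1 lower. But 2 were higher without junction array 2 or 3 or without series 1, and 1 without series 2 or 3. None was lower without junction array 2 or 3, corpus array 1 or 2, or any 1 series. The lower gene was Dst by its brightest probe set (log2 difference -0.42). With its probe sets averaged, Dst was 1.97 higher in the junction than in the corpus. The lower count between junction and forestomach was 2 without corpus array 1 or 2 and with the series as a block. In the forestomach against the corpus 4 were higher, where 30.0% of all genes were, and 2 lower. The medians were -0.07, 0.30 and 0.36. The integrin subunit gene Itga6 had 1980.3, 1688 and 2052 in the junction and 923.4, 976.2 and 900.6 in the forestomach, against 1767.0, 1919 and 1713 in the corpus. Junction and corpus were thus both above the forestomach (junction minus forestomach 1.02, adjusted p = 8.4e-05). The laminin-332 chain gene Lamb3 followed the same pattern (junction minus forestomach 1.03, adjusted p = 0.000191). The chain gene Lama3 was instead higher than in the corpus by 0.96 in the junction and 0.97 in the forestomach. Itgb4, the partner of Itga6, was higher in the junction than in the forestomach (0.73, adjusted p = 0.00297, and 0.0572 without series 2).

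Dystonin (Dst), the plakin that links keratin filaments to collagen 17 in its epithelial isoform and microtubules or actin in other isoforms, had 4 probe sets that disagreed. Its brightest by mean log2 signal, 1423626_at, had 793.6, 694.8 and 656.2 in the junction and 1129.9, 1070.4 and 1217.8 in the forestomach, against 959.7, 1016.3 and 900.3 in the corpus. In contrast, 1421117_at had 1025.4, 800.6 and 1512.9 in the junction and 1741, 1253 and 1833 in the forestomach, against 41.6, 30.1 and 43.2 in the corpus. Probe set 1421117_at was higher than the corpus by a log2 difference of 4.51 in the junction and 5.06 in the forestomach (adjusted p = 7.05e-06 and 7.35e-07 over all probe sets). The probe set 1450119_at behaved in the same way, with log2 differences of 4.05 and 4.34 (adjusted p = 2.46e-06 and 3.31e-07). These 2 probe sets therefore had the on and off pattern of Krt5 and Col17a1, and the other pair did not. They were singled out after their values were seen.

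**Figure D3:**
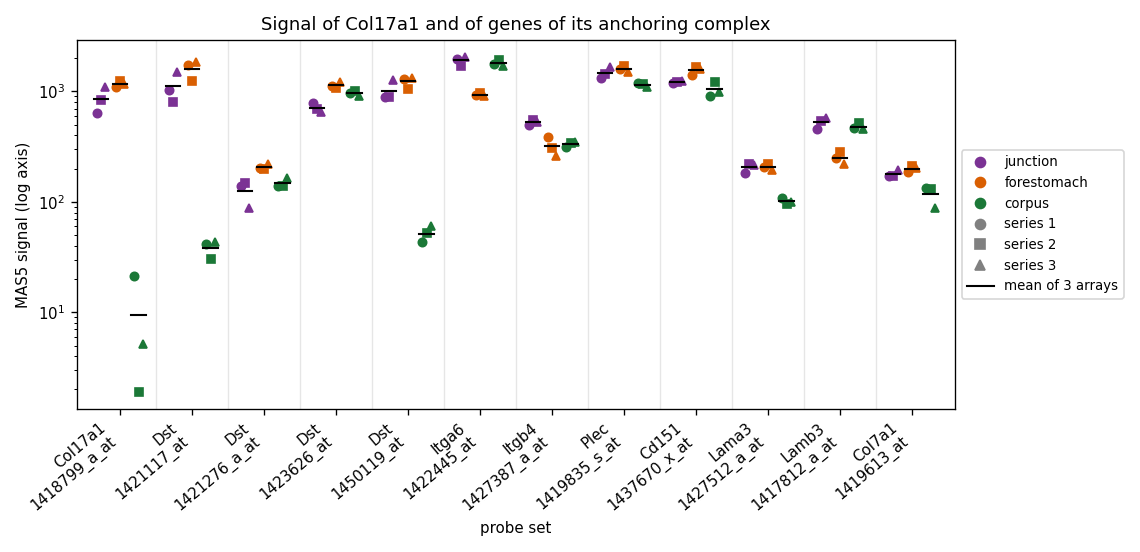
MAS5 signal (log axis) of Col17a1, the 4 Dst probe sets and 7 other genes of the anchoring complex on each array, by zone, with the mean of 3 arrays as a line. Col17a1 and 2 of the Dst probe sets are near background in the corpus and bright in the junction and forestomach, while Itga6 and Lamb3 are lowest in the forestomach.

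Genes linked to p63 in keratinocytes were mostly higher in the junction and forestomach than in the corpus, and several were lower in the junction than in the forestomach. Of 16 listed, 14 were measured. Comparing the junction with the corpus, 12 were called higher and 0 lower, and in the forestomach against the corpus 13 were higher and 0 lower, with median log2 differences of 1.38 and 2.22. Over all genes 13.2% and 30.0% were called higher in these comparisons. Comparing the junction with the forestomach, 8 of 14 were called lower and 0 higher by limma, where 23.1% and 21.5% of all genes were, with a median of -0.72, and at an unadjusted p under 0.05 the counts were 9 and 0. Without series 1 or without series 2, 5 of 14 were called lower. Among the 4085 genes called higher in the forestomach than in the corpus, 2690 were called lower in the junction than in the forestomach and 27 higher. A fall in the junction was thus common to genes high in the forestomach and not particular to this list. The forestomach arrays chose those genes and enter the difference. The cell-cycle protein gene Sfn (14-3-3 sigma) was 3.11 higher in the junction and 3.46 higher in the forestomach than in the corpus on the log2 scale. Perp, a desmosomal target of p63, had 7238, 7787 and 8985 in the junction and 11093, 10912.5 and 10162 in the forestomach, against 2675, 2415.5 and 2851.0 in the corpus. Its junction level was below the forestomach level (log2 difference -0.43, adjusted p = 0.0129, and 0.152 and 0.0972 without series 1 and 2). The receptor gene Fgfr2 (-0.98, adjusted p = 0.000318) and the chromatin organiser gene Satb1 (-1.18, adjusted p = 0.000794) were lower in the junction as well. Dlx3 had the largest such difference of the list (-1.52, adjusted p = 0.000827), which was -0.53 with the mean of its probe sets. The relative of p63, Trp73, was dim, with 135.5, 61.9 and 51.4 in the junction and 35.7, 19.5 and 30.3 in the forestomach, against 47.7, 57.9 and 44.8 in the corpus. It was higher in the junction than in the forestomach (log2 difference 1.19, adjusted p = 0.0129, and 0.0807 without series 2).

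Most other listed genes of the basal layer were higher in the junction and forestomach than in the corpus. Of 17 measured, 13 were called higher in the junction than in the corpus and 13 in the forestomach than in the corpus, with medians of 1.20 and 1.74, where 13.2% and 30.0% of all genes were called higher. Itga3 was instead lower in the forestomach than in the corpus (-0.38, adjusted p = 0.0189). That call was lost without forestomach array 1 or 3, corpus array 1, or series 1 or 3. The integrin genes Itga2 and Itgb1, and Ngfr, passed in neither comparison with the corpus. The desmosome gene Pkp1 (6.26 in the junction, 6.86 in the forestomach), the galectin gene Lgals7 (5.92 and 6.74), the desmosomal cadherin gene Dsc3 (4.58 and 5.54) and Trim29 (4.46 and 4.79) had the largest differences, and the progenitor factor gene Sox2 was 1.83 and 2.18 higher. With a pseudocount of 30.9 Pkp1 was at 5.62 and 6.21. Comparing the junction with the forestomach, 2 were called higher and 6 lower, where 21.5% and 23.1% of all genes were, among them the growth factor receptor gene Egfr (-1.01, adjusted p = 0.000191). The count of higher genes was 1 without junction array 1 or 2 or series 1, and 0 without forestomach array 3 or series 3. Of the 4085 genes called higher in the forestomach than in the corpus, 2690 were called lower in the junction than in the forestomach.

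Of 12 other keratins measured from the list of the upper layers and of stressed epithelium, 4 were called higher in the junction than in the forestomach, 4 were called lower and 4 did not pass, with a median of -0.20. Over all genes 21.5% were called higher and 23.1% lower. The 4 lower ones, named after their values were seen, were Krt80 (-1.16, adjusted p = 0.0272), Krt78 (-1.08, adjusted p = 0.00591), Krt76 (-0.90, adjusted p = 0.000313) and Krt23 (-0.78, adjusted p = 0.00153). The call for Krt80 was lost without junction array 1 or 2, without any 1 forestomach array, without series 1 or 3 and with the series as a block (adjusted p = 0.0911, 0.0526, 0.0541, 0.0804, 0.0535, 0.0728, 0.106 and 0.0534 in that order). The suprabasal pair Krt1 and Krt10 had differences between junction and forestomach that did not pass, at 0.07 (adjusted p = 0.869) for Krt1. Krt10 had 17209.5, 17650.5 and 20617.5 in the junction and 17928, 18026.5 and 18211 in the forestomach, against 990.3, 337.2 and 601.2 in the corpus, a log2 difference between junction and forestomach of 0.03 (adjusted p = 0.947). Its signal on junction array 2 was the largest of any probe set on that array. Whether signals this near the top of the range hide a difference between the zones was not tested. Krt13, a keratin of the upper layers of internal squamous epithelia, was at -0.44 (adjusted p = 0.293, and 0.00929 with the mean of its probe sets). The stress keratin gene Krt6a stood far apart, with 1375.5, 2237 and 1855 in the junction and 70.5, 139.6 and 141.1 in the forestomach, against 100, 53.6 and 56.9 in the corpus. Krt6a was higher in the junction than in the forestomach by 3.88 on the log2 scale (adjusted p = 2.49e-05), as were Krt6b (3.36), Krt16 (3.02) and Krt17 (2.72). The difference of Krt15, at 1.01, lay between those of Krt5 and Krt14 and those of the stress keratins. The simple keratin gene Krt18 ran the other way from Krt5, with 5498, 4930.5 and 5512 in the junction and 98.8, 253.8 and 228.6 in the forestomach, against 5973, 5846 and 5667 in the corpus. The junction stripes therefore carried both keratin sets at levels not shown to differ from the neighbour that expresses each. For Krt5 the log2 difference from the forestomach was 0.09 (95% interval -0.58 to 0.77). For Krt18 that from the corpus was -0.13 ± 0.29 (limma adjusted p = 0.770), with all 3 junction arrays below the corpus arrays. The fit shares 1 spread over the 3 zones, so scatter in the third zone widens such intervals. Examples singled out after their values were seen are Krt20 between junction and corpus and Krt4 between junction and forestomach. Their limma adjusted p was 0.457 and 0.152 in this fit, and 0.0263 and 0.0111 with only the 6 arrays compared.

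Proliferation genes, which mark cycling cells in the basal layer and in the gland neck alike, were called higher in the junction than in the forestomach for 8 of 21 measured and lower for 0 (limma, 12 and 0 at an unadjusted p under 0.05), with a median of 0.64. Over all genes 21.5% were called higher there. The count of higher genes was 3 without series 1, 5 without junction array 2 and 11 with the series as a block. Set against the corpus, 0 were called higher in the junction, where 13.2% of all genes were, and 1 lower. At an unadjusted p under 0.05 the counts were 3 and 1 (limma), and the median was 0.20. With the series as a block the adjusted counts were 3 and 0. The 1 lower call was lost without junction array 2 or 3, corpus array 2 or 3, or series 2 or 3, and 1 gene was higher without forestomach array 1 or 2. For the forestomach against the corpus 3 were called higher, where 30.0% of all genes were, and 8 lower. The median was -0.44, against -0.01 over all genes. The lower count was 4 without forestomach array 1 or 3 or corpus array 2, and 3 without series 1 or 3. The higher count was 1 without series 2 and 0 without series 3. Mki67 had 250.7, 328.9 and 203.7 in the junction and 91, 176.2 and 120.1 in the forestomach, against 212.4, 246.4 and 210.3 in the corpus (junction minus forestomach 0.98, adjusted p = 0.00922, and 0.0890 without series 1).

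**Figure D4:**
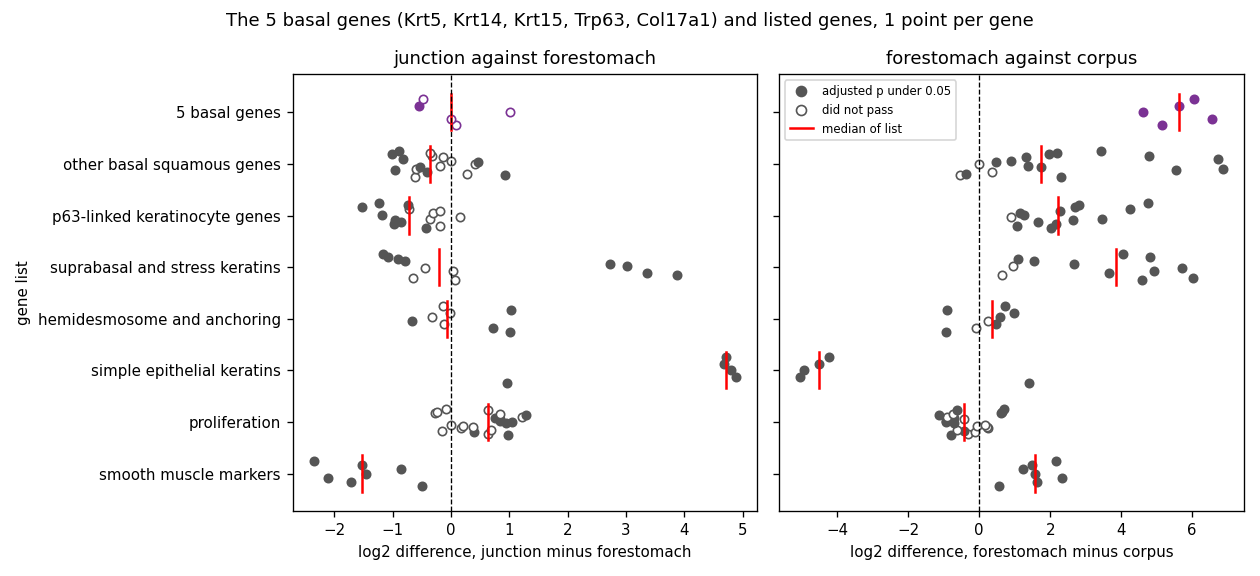
Log2 differences of the 5 basal genes and of 7 gene lists in the junction against the forestomach (left) and the forestomach against the corpus (right), 1 point per gene, filled where the adjusted p was under 0.05, with the median of each list as a red line. The 5 basal genes have a median of 5.62 on the right and 0.00 on the left, where the stress keratins stand at 2.72 to 3.88.

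Over all 9 arrays the log2 profiles of the 5 genes ran close together, as those of any gene on in the junction and forestomach and off in the corpus would. Pearson's r between pairs lay between 0.9386 (Krt15 and Trp63) and 0.9982 (Krt5 and Krt14). The points fall into 3 zones, so these values describe the zones more than the arrays. The genes whose profile was most like the mean of the 5 were Krtdap (r = 0.9976), the metallothionein gene Mt4 (0.9971), Crct1 (0.9967), Klk10 (0.9964), Krt10 (0.9962), Krt1 (0.9960), the annexin gene Anxa8 (0.9957), Rptn (0.9957), Asprv1 (0.9953) and Sprr3 (0.9950). By Spearman's rho 2 of these 10 stayed among the 10 most alike. For Krt15 alone the genes most alike were Arg1 (0.9946), Bola2 (0.9907, though only 0.47 higher in the forestomach than in the corpus on the log2 scale, and 0.09 where its probe sets were averaged) and the calprotectin gene S100a9 (0.9893). Arg1, which encodes the urea cycle arginase, had signals of 820.8, 1028 and 1258 in the junction and of 372.0, 435.6 and 518.5 in the forestomach, against 18.5, 3.4 and 25.0 in the corpus. For Trp63 alone they were Sbsn, Lgals7 and Kprp (0.9988, 0.9985 and 0.9985), all called lower in the junction than in the forestomach, at log2 differences of -0.65, -0.82 and -0.90. The call for Sbsn was lost without series 2 (adjusted p = 0.0686). The call for Lgals7 was lost without junction array 1 (adjusted p = 0.0569) and without series 2 (0.136).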

How the data were processed

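Total RNA from 9 tissue pools was hybridised as biotin-labelled cRNA to 9 Affymetrix arrays, 3 per zone. The deposited intensities are MAS5 signals, per the submitters' processing notes. The MAS5 version is not given in the sources used here. The analysis used R 4.3.3 with limma 3.58.1, and Python 3.11.15 with matplotlib 3.10.9 for figures. Control probe sets (64) were left out. Signals were taken to log2 after adding 9.8, taken from the 20th percentile of each array as the median of the 9. A probe set was kept if it exceeded the 40th percentile of its array (29.0 to 36.5) on 3 or more arrays. This rule kept 29511 probe sets. Of the 45101 probe sets, 34958 had 1 gene symbol, 932 several and 9211 none, and 34754 symbols were updated to RefSeq names (GRCm38.p6). Among the probe sets kept for a gene, the one brightest on average (log2) stood for it.

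All 9 arrays entered 1 limma fit with a mean per zone (6 residual and 2.56 prior degrees of freedom), tested on simulated data first, with Benjamini-Hochberg adjustment over all genes and a threshold of 0.05. Named genes were drawn from the 5 genes, up to 4 genes past the threshold with the largest difference per list and comparison, a fixed set of keratin, integrin, p53 family and proliferation genes, and the genes most alike by Pearson's r. Not all of these are printed, and some other genes are named, among them Itga3, Itgb1 and Ngfr, which did not follow their list. The 5 genes and the 13 lists were chosen with earlier results of these data known. Arrays with one series number come from the same mice, per the labels, so the number pairs them. Their deviations from the zone means correlated at -0.0287 to 0.123 (mean 0.0329, 9 pairs), and those of 18 pairs from unlike series averaged -0.0165. Promoters are RefSeq sequences, and no genome sequence was used. Alternatives changed the pseudocount, filter, normalization, probe set rule, model options and series block, or left out an array or series.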

Additional observations from a re-analysis of the deposited data

How the results depend on the processing

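Against the corpus, all 5 genes were called higher in the junction and in the forestomach under each of the 23 alternatives. In the junction against the forestomach, 1 of the 5 genes was called. That count was 0 with a pseudocount of 1, with no filter, with probe sets averaged per gene, with all probe sets tested and with the series as a replicate block, and 2 with the larger pseudocount of 30.9. Leaving out an array or series gave 0 to 1. The paired fit with the series block changed no other call of the 5 genes. Of the 10 probe sets, 2 were called there, 4 with the larger pseudocount and 1 to 3 with an array or series left out. Of the 10 genes most alike, 2 stayed with Spearman's rho and 6 with the larger pseudocount. The Dst difference between junction and corpus was -0.42 by its brightest probe set and reversed to 1.97 with the mean of its probe sets, which includes the pair that is dim in the corpus. Other causes were not tested. Corpus signals below the filter level (all 3 arrays for Trp63 and Col17a1, 2 for Krt15, 1 for Krt14) limit the precision of folds against the corpus, and 3 arrays per zone limit the rest.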

Other observations

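One probe set is annotated to both Krt17 and Krt14 and was therefore not counted for either gene. It was dim, with signals of 21.5, 14.2 and 37.1 in the junction and 31.5, 32.5 and 28.2 in the forestomach, against 3.8, 4.6 and 2.8 in the corpus. The junction and forestomach arrays overlapped, although Krt17 by its own probe set was higher in the junction than in the forestomach by 2.72 on the log2 scale.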
